A study of Sus scrofa with 12 samples.

Results

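CXCR3 and CXCR6 are chemokine receptors of activated T cells and NK cells, and the genes described are these 2 receptors with their ligands, CXCL9, CXCL10, CXCL11 and CXCL16. They are 6 of the 10912 genes that could be named on the arrays, and each was measured by 1 probe set. The members were chosen by receptor and ligand pairing, but CXCR3, CXCR6 and CXCL9 were selected on their differences between biogroups on these same arrays. For these 3 genes the values and fold changes are therefore a description, with no test. CXCL10, CXCL11 and CXCL16 were tested.

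CXCL9, CXCL10 and CXCL11 are secreted after stimulation with IFNγ, CXCL10 and CXCL11 also after type I interferons, and all of them bind CXCR3, which guides type 1 T cells and NK cells into inflamed tissue. CXCL16 is made as a membrane protein of macrophages, dendritic cells and endothelium, binds CXCR6, and is shed by the protease ADAM10. In the pig gene reference CXCL10 and CXCL11 are neighbouring coding genes, and ART3 lies between CXCL9 and CXCL10. CXCR6 lies beside XCR1, another chemokine receptor.

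RNA was measured in the infarcted anterior wall of the left ventricle of 12 female Large White pigs, on day 7 post-therapy, with an Affymetrix array for each, and the pigs formed 3 biogroups of 4. In every pig an acute myocardial infarction (AMI) was made by closing and reopening the left anterior descending coronary artery with a balloon, and the treatment was then given into the pericardial sac. AMI/Placebo received the vehicle alone. AMI/S-MenSCs received the concentrated secretome of human menstrual blood-derived mesenchymal stromal cells, and AMI/S-MenSCs* received that of the same kind of cells primed with IFNγ and TNFα (the sample labels write S-endMSCs for S-MenSCs). The animals were healthy before the infarct, and a biogroup without infarct or treatment was not analysed here. Values are log2 values as normalized by the authors, and a difference between biogroups is a log2 fold change.

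The interquartile range of an array, a measure of its contrast, ran from 1.66 to 2.51 over the 12 arrays, and was lowest in AMI/Placebo replicate 4, AMI/S-MenSCs replicate 1 and AMI/S-MenSCs* replicate 4 within their biogroups. With limma and Benjamini-Hochberg adjustment, 0 of 27558 probe sets passed in any comparison, where the smallest adjusted p was 0.342, while 1420, 925 and 2020 probe sets had an unadjusted p under 0.05 for S-MenSCs versus placebo, S-MenSCs* versus placebo and S-MenSCs* versus S-MenSCs (below, between the secretomes). That threshold, which the study used, defines a called gene below. The median of all probe set means was 2.78, and CXCL10 and CXCL11, with means of 2.33 and 2.03 over the 12 pigs, lay below it. The means of CXCR3, CXCL9, CXCR6 and CXCL16 lay above it, at 3.61, 4.35, 2.86 and 4.21. For CXCR6 all AMI/Placebo pigs (mean 2.47) and all AMI/S-MenSCs* pigs but replicate 4 lay below that median. How far these values lie above the background of the arrays was not measured here.

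CXCR3, the shared receptor of the interferon-induced ligands, had its 2 highest values in AMI/Placebo and its lowest biogroup mean in AMI/S-MenSCs*. Its log2 values in the AMI/Placebo pigs were 3.42, 3.40, 4.32 and 4.88. In the AMI/S-MenSCs pigs they were 3.90, 3.28, 3.80 and 3.17. In the AMI/S-MenSCs* pigs they were 3.19, 3.25, 3.17 and 3.54. The AMI/Placebo pigs fell into a pair near 3.4 and a pair above 4.3, and the lower pair lay inside the range of the AMI/S-MenSCs* pigs, so the biogroups overlapped. The biogroup means were 4.00 ± 0.723 (SD, n = 4), 3.54 ± 0.364 (SD, n = 4) and 3.29 ± 0.171 (SD, n = 4) in that order. Relative to placebo the log2 fold change was -0.72 (standard error 0.323, 0.609-fold) in AMI/S-MenSCs* and -0.46 (standard error 0.323) in AMI/S-MenSCs. Much of both differences came from AMI/Placebo replicate 4, and they were -0.42 and -0.17 without it. Between the secretomes the log2 fold change was -0.25, and it was -0.13 and -0.16 without AMI/S-MenSCs replicate 1 or 3.

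**Figure D1:**
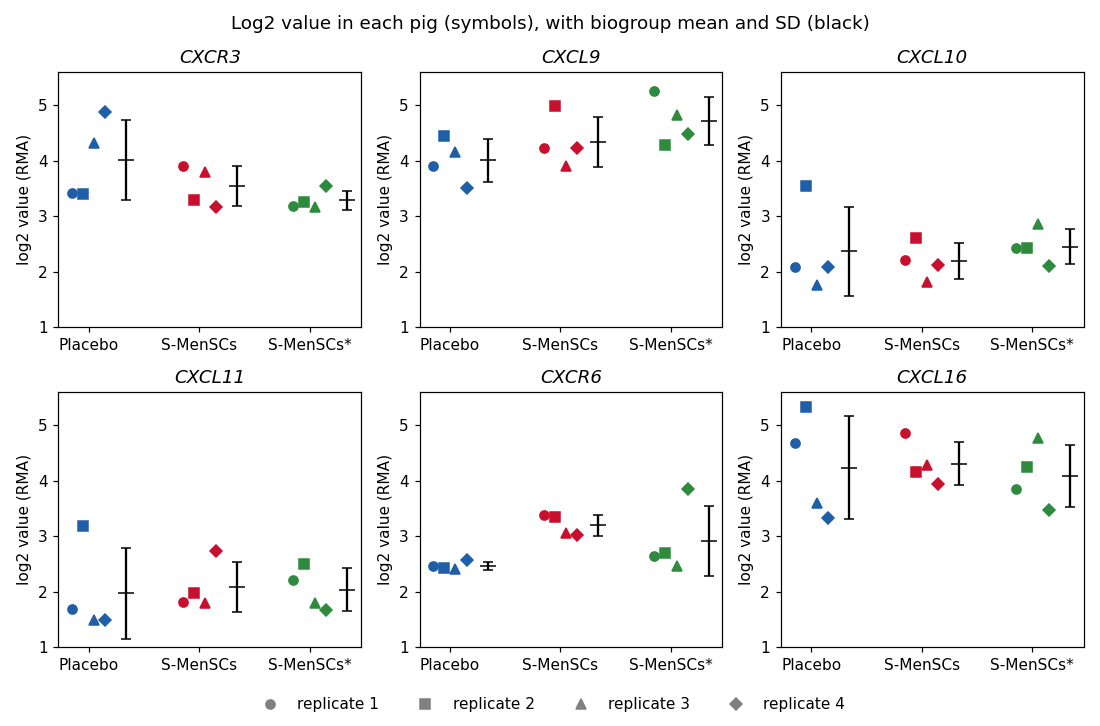
Log2 value (RMA, vertical axis) of each of the 6 genes in the 12 pigs by biogroup (horizontal axis), where symbols mark the replicate and black bars the biogroup mean and SD (n = 4). CXCR6, selected on these arrays, is the gene whose 4 AMI/S-MenSCs pigs, from 3.02 to 3.39, all lie above the 4 AMI/Placebo pigs, from 2.42 to 2.57. In CXCL10 and CXCL11 1 pig of AMI/Placebo stands above the others.

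CXCR6, the receptor of CXCL16 and a marker of tissue-resident and memory T cells, was higher in all AMI/S-MenSCs pigs than in any AMI/Placebo pig. Of all named genes 2.73% had no overlap in this comparison, and CXCR6 had been selected on it. Its log2 values were 2.46, 2.43, 2.42 and 2.57 in AMI/Placebo. They were 3.39, 3.34, 3.05 and 3.02 in AMI/S-MenSCs. They were 2.64, 2.70, 2.46 and 3.85 in AMI/S-MenSCs*, where replicate 4 held the highest value of all 12 pigs and replicate 3 lay within the range of AMI/Placebo. The means were 2.47 ± 0.0720 (SD, n = 4), 3.20 ± 0.191 (SD, n = 4) and 2.91 ± 0.634 (SD, n = 4). The SD in AMI/Placebo was smaller than that of all but 1.10% of probe sets. The log2 fold change for S-MenSCs versus placebo was 0.73 (standard error 0.279, 1.66-fold), and stayed between 0.67 and 0.79 when each array was left out in turn. For S-MenSCs* versus placebo it was 0.44 (standard error 0.279), and 0.13 without AMI/S-MenSCs* replicate 4. Between AMI/S-MenSCs* and AMI/S-MenSCs it was -0.29, with -0.60 in the absence of the same pig and -0.14 without AMI/S-MenSCs* replicate 3.

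The receptors were also set beside the contrast of the arrays. In each of the 3 biogroups the array with the lowest interquartile range held the highest value of CXCR3 and the highest value of CXCR6. None of the 4 ligands had this pattern. Of all named genes, 778 (7.13%) had it. The other arrays did not follow this order throughout, since AMI/S-MenSCs replicate 4, with the second lowest interquartile range of its biogroup (1.93), had the lowest CXCR3 and CXCR6 there. With the interquartile range as a covariate, the log2 fold change of CXCR6 was 0.51 for S-MenSCs versus placebo, 0.40 for S-MenSCs* versus placebo and -0.11 between the secretomes. That of CXCR3 was then -0.76, -0.77 and -0.012. Without these 3 arrays the values of CXCR6 were 0.70, 0.17 and -0.54. Those of CXCR3 were -0.29, -0.51 and -0.21. The part of array contrast in the levels of the receptors was not tested further.

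**Figure D2:**
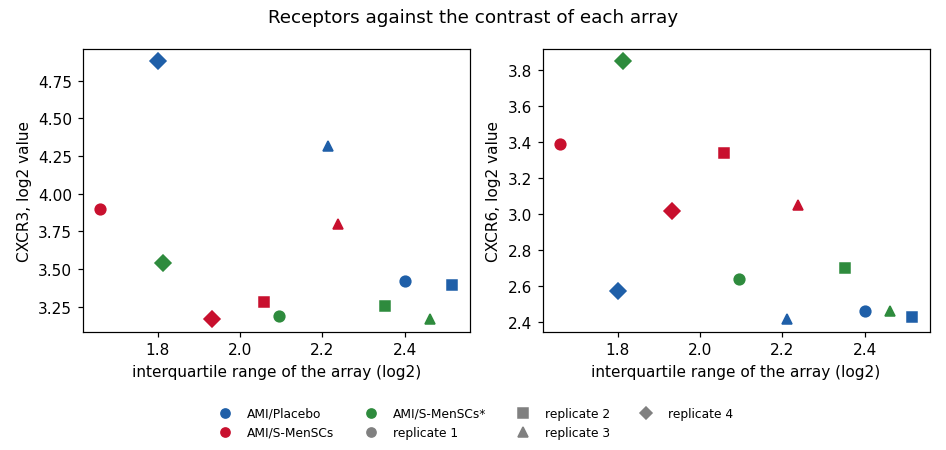
Log2 value of CXCR3 (left) and CXCR6 (right) on the vertical axes against the interquartile range of each array (horizontal axes), for 12 pigs, with colour for the biogroup and symbol for the replicate. Within each colour the leftmost point is the highest, for both receptors.

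CXCL9, the ligand of CXCR3 that depends most on IFNγ, had its highest mean in AMI/S-MenSCs* and its lowest in AMI/Placebo. Its log2 values were 3.90, 4.44, 4.16 and 3.52 in AMI/Placebo. They were 4.22, 4.98, 3.90 and 4.23 in AMI/S-MenSCs. They were 5.26, 4.29, 4.82 and 4.47 in AMI/S-MenSCs*. The top value belonged to AMI/S-MenSCs* replicate 1 and the bottom one to AMI/Placebo replicate 4, and AMI/Placebo replicate 2 lay above AMI/S-MenSCs* replicate 2, so that the biogroups overlapped. The means were 4.00 ± 0.392 (SD, n = 4), 4.33 ± 0.456 (SD, n = 4) and 4.71 ± 0.429 (SD, n = 4). Relative to placebo the log2 fold change was 0.71 (standard error 0.299, 1.63-fold) in AMI/S-MenSCs* and 0.33 (standard error 0.299) in AMI/S-MenSCs. The first ran from 0.52 to 0.85 when each array was left out in turn. The second ran from 0.12 to 0.48, the lowest when AMI/S-MenSCs replicate 2 was left out, and was 0.17 without AMI/Placebo replicate 4. Between the secretomes the log2 fold change was 0.38, and it was 0.59 and 0.23 without AMI/S-MenSCs replicate 2 or 3 and 0.19 without AMI/S-MenSCs* replicate 1. Cardiomyocyte markers differed as well, and of 15 measured 11 were higher after S-MenSCs* than after S-MenSCs at an unadjusted p under 0.05. None passed after adjustment over all probe sets, and 7.29% of all named genes were called in this comparison. The median log2 fold change of the 15 markers was 1.64. With the mean of these markers as a covariate the log2 fold change of CXCL9 between the secretomes was 0.14 instead of 0.38, and that against AMI/Placebo was 0.57. In tissue RNA a change in the number of cells of a type and a change in RNA per cell cannot be told apart.

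CXCL10 and CXCL11, the other ligands of CXCR3, did not pass the test in any comparison. In both genes 1 pig of AMI/Placebo stood above all others. The log2 values of CXCL10 were 2.09, 3.55, 1.76 and 2.08 in AMI/Placebo. They were 2.20, 2.61, 1.82 and 2.11 in AMI/S-MenSCs. Those of AMI/S-MenSCs* were 2.43, 2.42, 2.85 and 2.10. The highest of all pigs was AMI/Placebo replicate 2, and the other AMI/Placebo pigs lay at or below 2.09. For S-MenSCs versus placebo the log2 fold change of CXCL10 was -0.18 (95% interval -0.93 to 0.57, unadjusted p = 0.612 and adjusted p = 0.936 from limma). For S-MenSCs* versus placebo it was 0.08 (95% interval -0.66 to 0.83, unadjusted p = 0.814 from limma). It was 0.26 between the secretomes (95% interval -0.48 to 1.01, unadjusted p = 0.460 from limma). Without AMI/Placebo replicate 2 the difference of AMI/S-MenSCs from AMI/Placebo was 0.21 and that of AMI/S-MenSCs* was 0.48, neither of which passed (unadjusted p = 0.434 and 0.0927 from limma).

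The log2 values of CXCL11 were 1.70, 3.19, 1.49 and 1.49 in AMI/Placebo. They were 1.82, 1.98, 1.80 and 2.74 in AMI/S-MenSCs. Those of AMI/S-MenSCs* were 2.20, 2.50, 1.79 and 1.66. The same AMI/Placebo pig was the highest again, and AMI/S-MenSCs replicate 4 came next. The means were 1.97 ± 0.822 (SD, n = 4), 2.08 ± 0.444 (SD, n = 4) and 2.04 ± 0.384 (SD, n = 4). Relative to placebo the log2 fold change was 0.12 in AMI/S-MenSCs (95% interval -0.69 to 0.92, unadjusted p = 0.759 from limma), and for AMI/S-MenSCs* it was 0.07 (95% interval -0.73 to 0.88, unadjusted p = 0.853 from limma). Between the secretomes it was -0.05 (95% interval -0.85 to 0.76, unadjusted p = 0.903 from limma). These intervals leave room for changes as large as the one measured for CXCL9.

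CXCL16, the ligand of CXCR6, did not pass the test in any comparison either. Its log2 values were 4.68, 5.32, 3.60 and 3.33 in AMI/Placebo. They were 4.85, 4.15, 4.28 and 3.94 in AMI/S-MenSCs. Those of AMI/S-MenSCs* were 3.85, 4.24, 4.77 and 3.48. The AMI/Placebo pigs held both the highest and the lowest value of the 12, and their SD of 0.932 was larger than that of 94.5% of probe sets. The log2 fold change was 0.07 for S-MenSCs versus placebo (95% interval -0.82 to 0.97, unadjusted p = 0.864 from limma). It was -0.15 for S-MenSCs* versus placebo (95% interval -1.04 to 0.75, unadjusted p = 0.728 from limma) and -0.22 between the secretomes (95% interval -1.11 to 0.67, unadjusted p = 0.605 from limma). The adjusted p of the 9 tests of CXCL10, CXCL11 and CXCL16 was 0.887 or above.

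**Figure D3:**
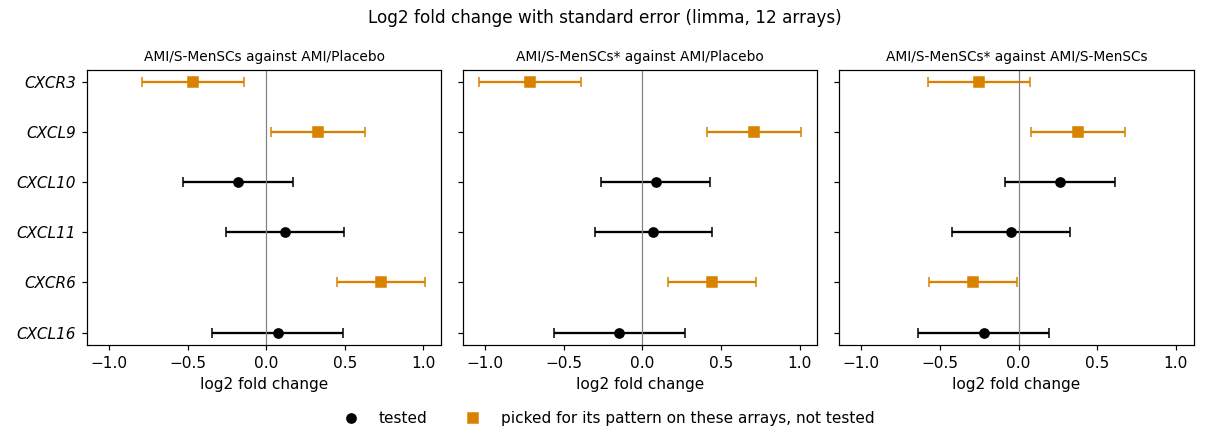
Log2 fold change (horizontal axes) of each of the 6 genes (vertical axis) in the 3 comparisons, with bars of 1 standard error from limma over 12 arrays. Orange squares are the genes selected on these arrays, which were not tested, and black circles are the genes that were tested, whose fold changes lie between -0.22 and 0.26 with bars that all cross 0.

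Counts over all named genes give the background for the members. For S-MenSCs versus placebo 0 of the 3 tested members were called, where 4.44% of named genes were. For S-MenSCs* versus placebo it was 0 of 3, with 3.23% of named genes called, and between the secretomes 0 of 3, with 7.29% called. Biogroups without overlap were seen for 1 of the 6 members, CXCR6, for S-MenSCs versus placebo, where 2.73% of named genes had none, and CXCR6 had been selected on this contrast. For S-MenSCs* versus placebo (1.99% of named genes) and between the secretomes (3.54% of named genes) the biogroups overlapped for all 6.

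The ligands of CXCR3 were compared pig by pig with each other and with the receptor, over 7 pairs that include CXCR6 with CXCL16. The adjustment also counts CXCR3 with CXCL9, both selected on these arrays. The adjusted p of the other pairs over the 12 pigs therefore rest partly on a pair without a valid test. Pairs that join CXCR3, CXCL9 or CXCR6 to another gene also hold a selected gene. Their values over the 12 pigs include the differences between biogroups it was selected on, so their p there are only a description. The r within biogroups leaves those differences out. CXCL10 and CXCL11 had a Pearson's r of 0.67 over the 12 pigs (permutation p = 0.0203, 0.0711 adjusted over the 7 pairs) and a Spearman's rho of 0.69 (permutation p = 0.0175, adjusted 0.0307). Pearson's r depended on AMI/Placebo replicate 2, without which r was 0.30 (permutation p = 0.372), and rho was not computed without this pig. Without that pig and AMI/S-MenSCs* replicate 3, the farthest from the median of CXCL10, r was 0.48 (permutation p = 0.159). Within biogroups r was 0.71 (exact permutation p = 0.112).

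CXCL9 and CXCL10 had an r of 0.48 (permutation p = 0.113, adjusted 0.172) and a rho of 0.77 (permutation p = 0.00465, adjusted 0.0307). Within biogroups r was 0.57 (exact permutation p = 0.0645), and without the 2 farthest pigs it was 0.58 (permutation p = 0.0771). CXCL9 and CXCL11 had an r of 0.27 and a rho of 0.45 (permutation p = 0.388 and 0.142). The ligands thus had positive coefficients with each other in all pairs, of which 0 passed with Pearson's r after adjustment.

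CXCR3 had negative coefficients with all of its ligands. With CXCL9 r was -0.69 and rho -0.69, but both genes were selected on differences between biogroups, and within biogroups r was -0.53 (exact permutation p = 0.102, 0.196 adjusted over the 7 pairs). With CXCL10 r was -0.47 (permutation p = 0.123, adjusted 0.172) and rho -0.70 (permutation p = 0.0142, adjusted 0.0307). With CXCL11 r was -0.57 (permutation p = 0.0517, adjusted 0.121) and rho -0.63 (permutation p = 0.0324, adjusted 0.0454). Within biogroups, without the differences on which CXCR3 was selected, r was -0.57 with CXCL10 and -0.65 with CXCL11 (exact permutation p = 0.214 and 0.0820). Without AMI/Placebo replicates 3 and 4, the farthest from the median of CXCR3, r was -0.56 with CXCL9, and -0.39 and -0.40 with CXCL10 and CXCL11 (permutation p = 0.261 and 0.252). CXCR6 and CXCL16 had an r of -0.24 and a rho of -0.13 (permutation p = 0.455 and 0.698), and without AMI/S-MenSCs* replicate 4 r was 0.02. All values of a pig come from 1 array, whose contrast its genes share.

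**Figure D4:**
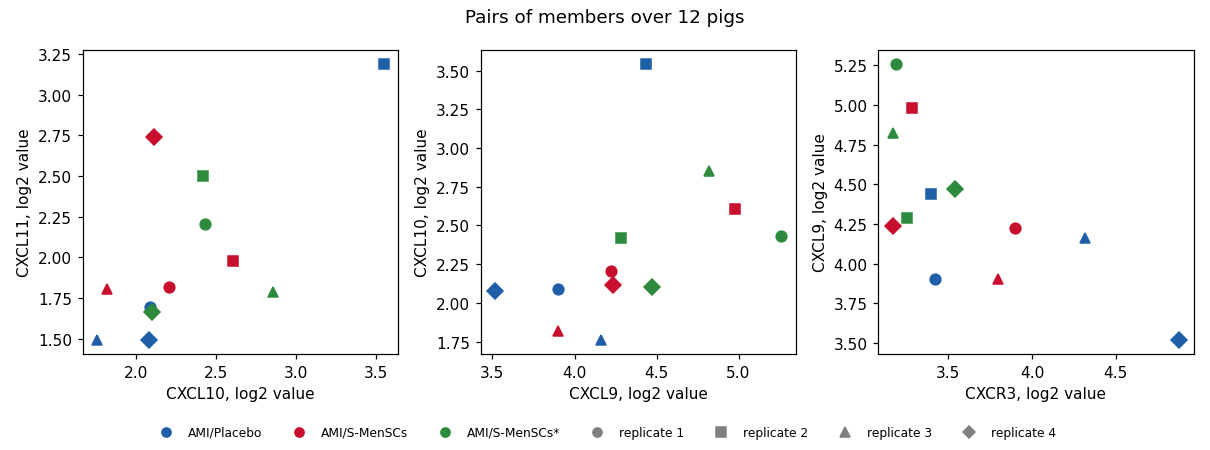
Log2 values of 3 pairs of genes in the 12 pigs, with CXCL10 and CXCL11 (left), CXCL9 and CXCL10 (middle) and CXCR3 and CXCL9 (right), colour for the biogroup and symbol for the replicate. On the left 1 AMI/Placebo pig, at 3.55 and 3.19, lies far from the rest, and on the right AMI/Placebo replicate 4 has the highest CXCR3, 4.88, and the lowest CXCL9, 3.52.

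The pigs that were highest in the members differed in their other immune genes. AMI/Placebo replicate 4, highest in CXCR3, was also highest of the 12 in the mean of 12 T cell markers (0.26 above the mean of all pigs) and of 11 NK and cytotoxic markers (0.35 above it). Its array was the one of lowest interquartile range in AMI/Placebo, 1.80, and AMI/S-MenSCs replicate 1, with the lowest of all 12, 1.66, came second in both means (0.21 and 0.22). The log2 value of NCR1, an activating receptor of NK cells, was 5.80 in this pig and at most 5.16 in the others. IFNG, which encodes IFNγ, was 2.32 there and at most 2.17 elsewhere, and GZMB, a granzyme of cytotoxic cells, was 3.86 and at most 3.53. Other genes of this kind were not highest in this pig. CD8A was 2.79, against 3.12 in AMI/S-MenSCs replicate 1, and TBX21, the transcription factor of type 1 lymphocytes, was 3.03, against 3.63 there. IRF1, a transcription factor induced by IFNγ, was 2.86, the second lowest value, and the mean of 15 genes of the IFNγ pathway was at -0.28. The same pig was lowest in CXCL9 and CXCL16.

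AMI/Placebo replicate 2, highest in CXCL10, CXCL11 and CXCL16, was highest in the mean of 12 macrophage and monocyte markers (0.65 above the mean of all pigs). It was second to AMI/Placebo replicate 1 in the mean of 13 type I interferon genes (0.86 and 1.06 above it). That replicate 1, however, lay below the mean of all pigs in CXCL10 and CXCL11, at -0.25 and -0.33. In AMI/S-MenSCs* the highest CXCL10 and CXCL16 were in replicate 3, where the type I interferon genes were 0.42 above the mean of all pigs. AMI/S-MenSCs* replicate 4, highest in CXCR6, was lowest of the 12 in the macrophage markers and in the type I interferon genes, at -0.62 and -0.80. Its T cell markers were at 0.13, and its array had the lowest interquartile range of its biogroup, 1.81. The part of these cell types, or of array contrast, in the levels of the members and lists was not tested.

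**Figure D5:**
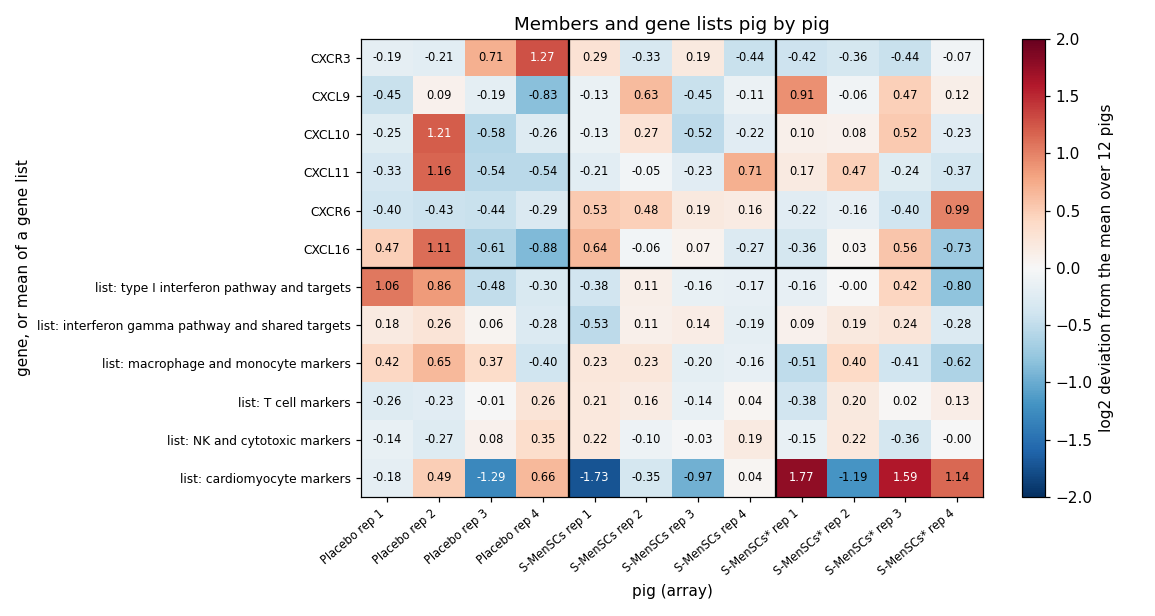
Log2 deviation from the mean over 12 pigs (colour and number in each cell) of the 6 genes and of the mean of 6 gene lists (rows) in each pig (columns), with lines between the biogroups. AMI/Placebo replicate 2 is high in CXCL10, CXCL11, CXCL16, the type I interferon genes and the macrophage markers, and AMI/Placebo replicate 4 in CXCR3 and the T and NK cell markers.

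Markers of the cells that carry CXCR3 and CXCR6 were followed as lists. None of 12 T cell markers, 11 NK and cytotoxic markers and 10 regulators of type 1 lymphocytes was called in any comparison. Of all named genes 4.44% were called for S-MenSCs versus placebo, 3.23% for S-MenSCs* versus placebo and 7.29% between the secretomes. These shares also apply to the lists that follow. With so few genes, a list without a call is not shown to be unchanged. The median log2 fold change of the T cell markers was 0.24 in AMI/S-MenSCs and 0.09 for S-MenSCs* versus placebo, beside 0.01 over all named genes in both. For the NK and cytotoxic markers it was 0.19 and -0.08. By their means over all pigs, 7 of the 12 T cell markers and 4 of the 11 NK and cytotoxic markers exceeded the median of the array. Of the defining markers, CD3E, the signalling chain of the T cell receptor, and CD8A, the coreceptor of cytotoxic T cells, had biogroup means of at most 2.29 and 2.58, below the median of all probe sets, while NCR1 and GZMB lay above it in their means over all pigs. The tissue itself was marked by MYH7, a heart muscle myosin, and COL1A1, a collagen of scar, with biogroup means of at least 9.11 and 9.08. The pigs differed in scar genes, and COL1A1 ran from 6.36 to 10.56 within AMI/S-MenSCs*. The mean of 8 fibroblast and scar markers was lowest in AMI/S-MenSCs* replicate 4, at -1.86 from the mean of all pigs. It was -1.01 in AMI/S-MenSCs replicate 1 and -0.74 in AMI/Placebo replicate 4, also the arrays of lowest interquartile range in their biogroups. The part of scar content in the members was not tested.

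Upstream, 0 of 15 measured genes of the IFNγ pathway and its targets passed in any comparison. IFNG itself differed by 0.19 and 0.15 on the log2 scale from AMI/Placebo in AMI/S-MenSCs and AMI/S-MenSCs* (unadjusted p = 0.484 and 0.596 from limma). Of 13 type I interferon genes, 1 fell for S-MenSCs* versus placebo, the antiviral GTPase MX2 (log2 fold change -0.87, unadjusted p = 0.0497 from limma), and 12 did not pass. This call was lost after median centring and with the cardiomyocyte covariate, where 0 genes of the list were called. The median of this list was -0.42 for S-MenSCs and -0.41 for S-MenSCs* versus placebo, and both comparisons share the AMI/Placebo pigs, of which 2 were high in it. Of 12 macrophage and monocyte markers 3 fell for S-MenSCs* versus placebo, the signalling adaptor TYROBP, the complement chain C1QB and the calcium-binding protein AIF1, with a median of -0.65 over the list. The count was 2 after median centring and 2 with the cardiomyocyte covariate. Of all named genes 3.23% were called in this comparison, and the lists were chosen with earlier results of these data known. In the same comparison all 15 cardiomyocyte markers had positive log2 fold changes (median 0.91, 0 called), and ACTA2 and TAGLN, contractile genes of smooth muscle, were called lower (-1.19 and -1.04). The part of these cell types in the fall was not tested.

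Downstream, 0 of 14 genes of receptor signalling and ligand turnover passed in any comparison. ADAM10, which sheds CXCL16, had a log2 fold change of -0.35 for S-MenSCs versus placebo (unadjusted p = 0.384 from limma). DPP4, a peptidase that trims the ligands of CXCR3, had one of 0.27 for S-MenSCs* versus placebo (unadjusted p = 0.481 from limma). Among 5 other CXC chemokines 1 was called, the neutrophil attractant CXCL2, which was lower after S-MenSCs* than after S-MenSCs (log2 fold change -0.62, unadjusted p = 0.0445 from limma). It was no longer called after median centring or with the cardiomyocyte covariate. Among 7 other receptors 1 was called, ACKR2, a scavenger of CC chemokines, which was higher in AMI/S-MenSCs than in AMI/Placebo (0.61, unadjusted p = 0.0279 from limma). The study reports ACKR2 as up-regulated after S-MenSCs on these same arrays, so this call adds no support. Of all named genes, 4.44% were called in the comparison of ACKR2 and 7.29% in that of CXCL2. Neither ACKR2 nor CXCL2 passed after adjustment over all probe sets.

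The genes whose levels ran most closely with each member were found among the up to 5834 other named genes whose mean exceeded that median, by Pearson's r over the 12 pigs, as a description with no test. For CXCR3 they were LOC100513889, MB21D2 and CLDN11, a claudin of tight junctions (r = 0.88, 0.88 and 0.87). For CXCR6 they were TMEM201, ZNF19 and RFX1, the latter being a transcription factor (r = 0.88, 0.83 and 0.83). For CXCL16 they were LOC100152738, the interferon-induced gene IFI44 and RBCK1, a subunit of the linear ubiquitin ligase (r = 0.88, 0.88 and 0.86).

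For CXCL9 they were NDUFA2, a subunit of respiratory complex I, the growth hormone receptor GHR and the netrin receptor UNC5A (r = 0.86, 0.83 and 0.80). For CXCL10 they were MIGA1, the guidance ligand SLIT2 and NSMF (r = 0.86, 0.80 and 0.79), and for CXCL11 ALPK1, CD180 and LOC100524554 (r = 0.79, 0.79 and 0.77). The number of these genes with r above 0.8 was 9 for CXCL16, 7 for CXCR6, 5 for CXCR3, 3 for CXCL9, 2 for CXCL10 and 0 for CXCL11. No member was among the named matches of another, but CXCL10 and CXCL11 could not be, since their means lay below the median required of a match.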

How the data were processed

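RNA of the infarcted area of 12 pigs (3 biogroups of 4) was measured on Affymetrix porcine arrays. The deposited log2 values of 27558 probe sets were made by the authors with Robust Multichip Average (RMA) in the package oligo, and the versions and genome build were not given in the sources used here. RMA corrects background and matches the arrays by quantiles of their probes, yet the deposited arrays still had medians from 2.69 to 2.99. Of the probe sets, 11982 had 1 gene symbol, 373 had several and were not named, and 15203 carried no name here. The platform table writes CXCR3 for its probe set with 2 Entrez identifiers, and 10965 named probe sets were matched to the pig gene reference (Sscrofa11.1) by Entrez identifier. Where a gene had several probe sets, that with the highest mean was used.

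limma 3.58.1 in R 4.3.3 was fitted to all 12 arrays with 1 mean per biogroup. A call is an unadjusted p under 0.05, and Benjamini-Hochberg adjustment covers all probe sets. Correlations used 100000 permutations (Python 3.11.15, scipy 1.17.1), and within biogroups all 13824 rearrangements of the deviations, a test chosen after seeing the data. The fit and the correlations were tested on simulated data. The alternatives tried were centring on the median, quantile normalization, dropping dim probe sets, a variance trend, array weights, a fit of the compared biogroups only, a replicate block, covariates for cardiomyocyte markers and for array contrast, an exact permutation test, and leaving out each array. Leaving out the array of lowest interquartile range in each biogroup was added after seeing the data. Named were all 6 members, the 3 genes most like each, called genes of the IFNγ, signalling and chemokine lists and the defining cell type markers. MX2, TYROBP, C1QB, AIF1, ACTA2, TAGLN, ADAM10, DPP4, IFNG, IRF1 and TBX21 lie outside this rule and were chosen for mention with their values known. The members and the 18 gene lists were chosen with earlier results of these data known. Sequences and the miRNA, qPCR and imaging data of the study were not used here. Of the gene positions only the order of neighbouring coding genes was used. Precision is limited by there being 4 arrays in a biogroup.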

Additional observations from a re-analysis of the deposited data

Results flagged for a closer look

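Within AMI/Placebo, CXCL11 in replicate 2 was 3.19, far above the other 3 pigs (1.49 to 1.70). The gap to the next pig was 0.878 of the whole range, above Dixon's critical value for 4 samples. Of the 18 sets of 4 pigs tested (6 genes in 3 biogroups) 1 was flagged, and chance flags about 1 in 20. CXCR6 in AMI/S-MenSCs* replicate 4 and CXCL10 in AMI/Placebo replicate 2 came closest below that value, with 0.826 and 0.816 of the range.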

How the results depend on the processing

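The log2 fold changes of CXCR3, CXCL9 and CXCR6 kept their sign under every alternative run. These genes were selected on the same arrays, so a kept sign is no support for their differences. Some alternatives could not change a fold change at all. These were the filter on dim probe sets, the variance trend, the fit of the compared biogroups only, the replicate block, and leaving out an array of the biogroup not compared. CXCR3 between the secretomes came to -0.012 with the interquartile range as a covariate. For AMI/S-MenSCs relative to AMI/Placebo CXCR3 ran from -0.76 to -0.29 over the alternatives that do not leave out single arrays. No p of CXCL10, CXCL11 or CXCL16 came under 0.05 in any alternative. The sign of these 3 genes turned in places, and the cause was not tested. In AMI/S-MenSCs against AMI/Placebo CXCL10 was 0.033 with the interquartile range as a covariate, and CXCL16 was -0.026 after median centring, -0.19 with array weights and -0.41 (unadjusted p = 0.332) without the array of lowest interquartile range in each biogroup, which also gave 0.16 (unadjusted p = 0.691) for CXCL16 between the secretomes. CXCL10 was -0.069 in AMI/S-MenSCs* against AMI/Placebo and -0.00070 between the secretomes with the cardiomyocyte covariate. CXCL11 between the secretomes was 0.026 after median centring and 0.066 after quantile normalization. With each array left out in turn, CXCL10, CXCL11 and CXCL16 ran from -0.38 to 0.21, -0.10 to 0.53 and -0.23 to 0.44 in AMI/S-MenSCs against AMI/Placebo. In AMI/S-MenSCs* against AMI/Placebo they ran from -0.12 to 0.48, -0.089 to 0.48 and -0.45 to 0.22, and CXCL11 between the secretomes from -0.20 to 0.17.

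For the pairs, r with each array left out ran from -0.76 to -0.52 for CXCR3 with CXCL9, -0.67 to -0.50 for CXCR3 with CXCL11, 0.43 to 0.69 for CXCL9 with CXCL10, 0.30 to 0.81 for CXCL10 with CXCL11 and -0.40 to 0.021 for CXCR6 with CXCL16. Within biogroups r was -0.53 for CXCR3 with CXCL9 and 0.71 for CXCL10 with CXCL11, and without the 2 farthest pigs -0.56 and 0.48, and these had a p above 0.05.

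Counts of called probe sets ran from 823 (without AMI/S-MenSCs replicate 1) to 2904 (without AMI/Placebo replicate 4) in AMI/S-MenSCs against AMI/Placebo, and were also over 1.5 times from 1420 at 912 and 850 without AMI/Placebo replicates 1 and 2 and at 2518 without AMI/S-MenSCs replicate 3. They ran from 657 to 1969 (without AMI/S-MenSCs* replicate 2) in AMI/S-MenSCs* against AMI/Placebo, with 1575 without AMI/Placebo replicate 4. Between the secretomes they ran from 1292 (without AMI/S-MenSCs* replicate 3) to 2769, with 1338 without AMI/S-MenSCs replicate 1, and were 911 instead of 2020 with the cardiomyocyte covariate. The share of higher calls was 61.2%, 57.2% and 55.9% in the 3 comparisons, and 39.5%, 51.4% and 68.1% after median centring. With the replicate block the counts were 1630, 1075 and 2163, and no member changed its call. Deviations of same-numbered pigs correlated between -0.184 and 0.397, with 4 of 12 pairs over 0.1. Those of differently numbered pigs correlated between -0.473 and 0.391, with 10 of 36 pairs over 0.1. Whether same-numbered pigs share more than a number was not tested. CXCL10 and CXCL11 did not pass the filter on dim probe sets and have no value under it, and each member has 1 probe set, so the choice among probe sets was not run.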
